A study of Mus musculus with 18 samples.

Results

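Primary mouse embryonic fibroblasts that carry the label Nfic knock-out were compared after 10 h and after 1 h of TGF-β1. Nfic encodes nuclear factor I-C, a DNA-binding transcription factor. The comparison used 6 of the 18 arrays of the series. They were the 3 arrays titled as 10 h of TGF-β1 in knock-out cells and the 3 titled as 1 h of TGF-β1 in knock-out cells, and each pair came from the same numbered embryo. All cells were grown from 14-day embryos without head and liver, in DMEM with 10% FCS, and stood for 4 to 6 h in DMEM with 1% AlbuMAX II and a mix of insulin, transferrin and selenium before treatment. The treated cells then received TGF-β1 at 12.5 ng/ml. The groups referred to below are labelled knock-out cells at 10 h, at 1 h and untreated, and wild-type cells at the same 3 conditions, with 3 embryos of each genotype. The design sets an immediate response at 1 h against a delayed response at 10 h, so the comparison addresses which early changes decayed, which lasted and which began after the first hour. The labels do not say for how long the untreated cells were kept. TGF-β1 and the added hours in culture therefore cannot be told apart in any value below.

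TGF-β1 binds a receptor pair of which TGFBR2 is the binding and TGFBR1 the signalling kinase. The kinase phosphorylates SMAD2 and SMAD3, which enter the nucleus with SMAD4 and switch on target genes, among them Smad7 and Skil, whose products hold the pathway back. In fibroblasts the growth factor is known for raising matrix and contractile genes. Nuclear factor I proteins are DNA-binding factors that form dimers with each other and are known to modulate such responses.

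Nfic itself read 10.03, 10.23 and 10.17 in labelled knock-out cells of embryos 1, 2 and 3 at 10 h, against 10.65, 10.32 and 10.72 at 1 h and 10.43, 9.89 and 10.72 untreated, as log2 RMA values of its brightest probe set. The wild-type cells read between 10.19 and 10.25 at 10 h, between 10.39 and 10.77 at 1 h and between 10.36 and 10.51 untreated. The labelled knock-out arrays therefore did not stand below the wild-type arrays, and the other 4 Nfic probe sets, at 4.74 to 6.96 on all arrays, overlapped between the genotypes as well. The labels do not give the deleted part of the gene and the probe positions were not used here, so these values do not check the labels, and the cells are called labelled knock-outs throughout.

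The cells carried fibroblast markers at high levels, with Col1a1, the main collagen chain, at 13.73 to 13.86 at 10 h and 13.76 to 13.96 at 1 h. Macrophage and leukocyte markers were present too, and their mean level over 19 genes was 9.30, 7.67 and 8.17 in embryos 1, 2 and 3 at 10 h against 9.38, 7.88 and 8.24 at 1 h. Erythroid markers, with a mean of 4.49 to 4.61 at 10 h and 4.44 to 4.55 at 1 h, and endothelial markers, at 4.71 to 5.04 and 4.73 to 4.95, lay near the dim end. Correlations between arrays of the same group were 0.988 to 0.995 at 10 h and 0.990 to 0.994 at 1 h. The array of embryo 1 at 10 h stood apart from its 2 partners: 157 tested genes were more than 1 log2 unit above both of them and 39 more than 1 below both. The other 2 arrays at 10 h had 6 and 3 such genes above and 26 and 1 below. At 1 h the array of embryo 1 had 53 genes above and 0 below, and in untreated cells 91 above and 0 below, so this embryo differed before treatment as well. Results that rest on this embryo are given with and without it.

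Between 10 h and 1 h, 2168 of 13678 tested genes were higher (15.9%) and 3120 lower (22.8%) at a limma adjusted p under 0.05, with embryo as a block. A change of at least 2-fold was reached by 279 of the higher genes (2.04% of those tested) and 510 of the lower ones (3.73%). The 3 arrays of one time all lay above those of the other for 6281 genes (45.9%). Over all tested genes the median difference was -0.011 on the log2 scale, and the 95% interval of the median gene reached 0.24 to each side. Without embryo 1 the counts were 1507 higher and 2266 lower, of which 1427 and 2181 were among the genes called with it. Below, differences are 10 h minus 1 h on the log2 scale with their standard error from limma, n is 3 embryos at each time, p is limma's adjusted p over all tested genes, and levels are log2 RMA values given for embryos 1, 2 and 3 in that order.

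The first question was what became of the genes that had moved within the first hour. To pick them without any labelled knock-out array, early genes were taken from the 9 wild-type arrays alone: 36 of 13678 genes (0.263%) passed there with at least a 2-fold change between 1 h and untreated cells, 32 of them rising and 4 falling. In labelled knock-out cells, 13 of the 32 rising genes then were lower at 10 h than at 1 h, 9 were higher and 10 did not pass. Over all tested genes, 22.8% were lower and 15.9% higher. The median difference of the 32 rising genes was -0.17, beside -0.011 over all tested genes. Those that fell included inhibitors of helix-loop-helix factors and negative regulators of the SMAD pathway, and those that rose further included a growth factor, a cytokine and a prostaglandin synthase.

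Rasl11b, which encodes a small GTPase-like protein, read 8.21, 8.22 and 8.58 without treatment, 11.48, 11.69 and 11.47 at 1 h and 8.94, 9.85 and 9.72 at 10 h. The 10 h arrays were all below the 1 h arrays and all above the untreated ones. The fall was -2.05 ± 0.17 (limma adjusted p = 2.4e-06), and 1.17 of the 1 h difference of 3.21 over untreated cells was left. Id1, whose product blocks DNA binding by helix-loop-helix factors, read 8.28, 7.62 and 7.47 untreated, 10.45, 10.28 and 10.18 at 1 h and 8.62, 7.98 and 8.50 at 10 h. Its 10 h arrays lay below every 1 h array and overlapped the range of the untreated ones, and the fall was -1.94 ± 0.17 (limma adjusted p = 2.9e-06). Id2 fell by 1.66 on the log2 scale and Id4 by 2.09. Id3 was not an early gene by the 2-fold rule in wild type and fell by 1.85. Relative to untreated cells, Id2, Id3 and Id4 stood at 1.69, 1.21 and 1.29 at 1 h, and at 0.03, -0.64 and -0.80 at 10 h.

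Smad6, an inhibitory SMAD that acts mainly on the bone morphogenetic protein branch, read 6.79, 7.19 and 7.09 at 10 h against 8.75, 8.61 and 8.39 at 1 h, without overlap (-1.56 ± 0.15, limma adjusted p = 5.5e-06). Smad7, which targets the TGF-β receptor, kept more of its first rise: it read 7.20, 7.16 and 7.02 untreated, 8.87, 8.68 and 8.97 at 1 h and 8.13, 8.35 and 8.23 at 10 h. Its 10 h arrays lay between the other 2 groups, and its fall was -0.60 ± 0.11 (limma adjusted p = 0.00075). Snai1, a repressor known from epithelial-mesenchymal transition, fell by 1.10, Klf10, a TGF-β-inducible zinc finger factor, by 0.83, and Hes1, a Notch target repressor, by 0.85. Cdk5r1, Mex3b, Gadd45g and Spsb1 also fell, by 0.87, 0.86, 0.51 and 0.45. The calls for Gadd45g and Spsb1 were lost without embryo 1 (adjusted p = 0.061 and 0.15 in limma), and that for Spsb1 also without embryo 2 or 3.

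Egr2, a zinc finger factor of the immediate early class, was the early gene with the highest 10 h level relative to untreated cells. It read 7.06, 6.57 and 6.85 untreated, 9.26, 9.08 and 9.12 at 1 h and 10.79, 10.49 and 10.59 at 10 h. The 3 groups did not overlap, and the further rise was 1.47 ± 0.15 (limma adjusted p = 1.3e-05). Hbegf, a ligand of the EGF receptor, read 9.56, 9.28 and 9.28 untreated, 11.47, 11.51 and 11.38 at 1 h and 13.02, 12.88 and 13.04 at 10 h, again in 3 separate steps (1.53 ± 0.11, limma adjusted p = 9e-07). Ptgs2, the inducible prostaglandin synthase, rose by 1.87 ± 0.15 and Ccn2, a matricellular protein and a classical TGF-β target, by 0.59 ± 0.13. Lif, a cytokine of the interleukin-6 family, rose by 1.34 ± 0.32, with 2.50 in embryo 1 and 1.02 and 0.49 in the others, and by 0.75 without embryo 1. Mfsd2a, Snord89, Rgcc and Foxc2 rose by 1.03, 0.97, 0.47 and 0.32, and the calls for Rgcc and Foxc2 were lost when any of the 3 embryos was left out.

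The other 10 rising early genes did not pass the test between 10 h and 1 h. Skil, which encodes a SMAD corepressor, read 10.06, 10.15 and 10.25 untreated, 11.02, 11.10 and 11.42 at 1 h and 11.20, 11.02 and 11.13 at 10 h. The 1 h and 10 h arrays overlapped and both lay above all untreated ones, with a 10 h minus 1 h difference of -0.06 ± 0.10. Junb, an AP-1 subunit, was at -0.03 ± 0.17 and Csrnp1, a nuclear protein, at -0.05 ± 0.11, while both stood 1.39 to 1.72 above untreated cells at both times. Bhlhe40, Ier3, Nuak2, Pim1, Ier5, Wnt9a and Gadd45b likewise missed the threshold, at -0.45 to 0.43. Egr3, an Egr2 relative outside the early set, was at 0.11 ± 0.34, a wide interval, with 1.10 and 1.21 over untreated cells at 1 h and 10 h. Of the 4 early genes that fell in wild type, only Ppp1r3c passed, falling further. Ccl3, Zfp40 and Txnip were at 1.95 ± 1.05, -0.15 ± 0.22 and 0.39 ± 0.17.

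**Figure D1:**
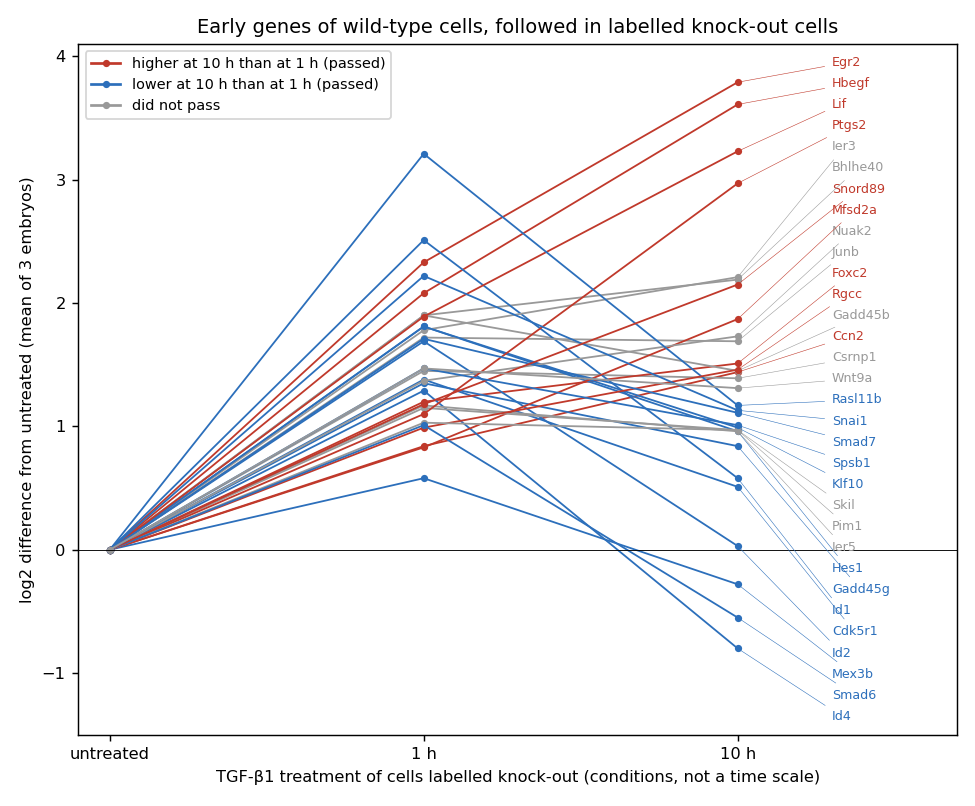
The 32 genes that rose at least 2-fold at 1 h in wild-type arrays are drawn as the log2 difference from untreated cells (y axis, mean of 3 labelled knock-out embryos) for untreated, 1 h and 10 h cells (x axis, conditions not spaced by time). Red lines are the 9 genes higher at 10 h than at 1 h, blue the 13 lower and grey the 10 that did not pass; Egr2 and Hbegf end highest, at 3.79 and 3.61, and Id4 lowest, at -0.80.

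The promoters of 2 early genes with opposite later course are shown, because each holds a short motif of a factor that acts in the first hour of growth factor treatment. The windows run from 250 bases before to 50 after the transcription start and were taken from RefSeq (GRCm38.p6). In the Smad6 window, chr9:64022010-64022309 on the minus strand, capitals mark the Smad-binding palindrome GTCTAGAC. In the Egr2 window, chr10:67537316-67537615 on the plus strand, capitals mark a CArG box, the element bound by serum response factor.
Smad6: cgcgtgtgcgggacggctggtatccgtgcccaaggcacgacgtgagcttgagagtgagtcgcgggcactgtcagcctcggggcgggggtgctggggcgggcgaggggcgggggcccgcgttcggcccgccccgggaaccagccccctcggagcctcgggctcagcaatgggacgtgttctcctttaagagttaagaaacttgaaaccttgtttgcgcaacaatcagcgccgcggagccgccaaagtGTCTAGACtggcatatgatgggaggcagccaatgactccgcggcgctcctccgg
Egr2: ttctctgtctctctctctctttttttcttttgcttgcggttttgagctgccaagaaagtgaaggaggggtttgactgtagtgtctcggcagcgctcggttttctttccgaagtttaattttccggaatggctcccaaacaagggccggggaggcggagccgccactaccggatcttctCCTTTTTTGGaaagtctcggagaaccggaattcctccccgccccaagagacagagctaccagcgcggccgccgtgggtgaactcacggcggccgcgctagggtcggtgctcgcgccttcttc
Searched on both strands, the palindrome was in 70 of 32851 promoter windows (0.213%) and the CArG box in 535 (1.63%). Of the 32 rising early genes, 20 had a promoter in the table, with 28 windows. The palindrome was in 1 of these windows, that of Smad6, and the CArG box in 4 (14.3%), all of them among the 5 windows of Egr2. These are matches of letters and no binding was measured.

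The list of SMAD feedback genes and early targets as a whole held 9 members lower and 5 higher of 20, with a median of -0.31. Over all tested genes, 22.8% were lower and 15.9% higher. Besides the genes above, Klf11 fell by 1.03 and Bambi, a decoy receptor, by 0.87. The list was chosen to hold genes that restrain the pathway. Such genes were found on both sides, with Smad6, Smad7 and Bambi among the lower ones. On the higher side, beside Ccn2, was Smurf1, a ubiquitin ligase that acts on SMADs and receptors. It read 8.97, 9.10 and 8.97 at 10 h against 7.90, 7.90 and 7.91 at 1 h, without overlap (1.11 ± 0.09, limma adjusted p = 2.3e-06). Ldlrad4 and Pmepa1, which restrain SMAD phosphorylation, rose by 0.89 and 0.64, and Smurf2 by 0.74.

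Among the ligands, receptors and SMADs of the pathway, 5 of 18 were higher and 5 lower, beside 15.9% and 22.8% of all tested genes. Without embryo 2, 3 were higher and 3 lower, and without embryo 3, 3 were higher. Tgfb1, the gene of the added ligand itself, read 10.21, 9.92 and 10.20 at 10 h against 8.46, 8.30 and 8.45 at 1 h. All 10 h arrays lay well above the 1 h arrays, and the rise was 1.71 ± 0.14, or 3.26-fold (limma adjusted p = 2.5e-06). The other ligand genes moved apart. Tgfb3 rose by 0.47, a call that was lost without embryo 2 or 3, and Tgfb2 fell by 0.50, a call that was lost whichever embryo was left out. Tgfbr1, the signalling receptor kinase, rose by 0.87 ± 0.11 and Tgfbr2, the ligand-binding kinase, fell by 0.58 ± 0.10. Tgfbr3, the co-receptor betaglycan, read 5.63, 5.47 and 5.14 at 10 h against 8.29, 8.48 and 7.93 at 1 h. Its fall of -2.82 ± 0.09, or 7.06-fold, was close to the same in the 3 embryos (limma adjusted p = 2.7e-09). Smad3, whose product the receptor kinase phosphorylates, fell by 1.15 ± 0.08, while Smad2 and Smad4 were at -0.09 and 0.13 and did not pass.

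Activin genes belong to the same ligand family, and 6 of 22 activin and BMP genes were higher and 4 lower, beside 15.9% and 22.8% of all tested genes. Inhba, the activin A subunit, read 13.39, 13.14 and 13.07 at 10 h against 10.38, 10.48 and 10.52 at 1 h (2.74 ± 0.10, limma adjusted p = 8.8e-09), without overlap. Its antagonists Fst and Fstl3 rose by 1.36 and 1.03. The activin receptor Acvr2a fell by 0.82, while Acvr1 rose by 0.70.

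By their brightest probe sets, the 4 members of the nuclear factor I family passed as lower at 10 h. Nfia read 6.42, 6.16 and 6.76 at 10 h against 8.51, 8.04 and 8.67 at 1 h, and Nfib 7.77, 8.33 and 8.38 against 9.80, 9.67 and 10.24. Neither gene overlapped between the times, and the falls were -1.96 ± 0.12 and -1.75 ± 0.18 (limma adjusted p = 2.6e-07 and 1.2e-05). Nfix fell by 1.15 ± 0.18 to 10.46, 10.85 and 10.83 at 10 h, against 11.88, 11.73 and 11.99 at 1 h. The Nfic probe set fell by 0.42 ± 0.14 (limma adjusted p = 0.029), a call that was lost without embryo 1 or 3, without the embryo block, with the 9 knock-out arrays alone and with the mean of all probe sets. The other 4 Nfic probe sets were at -0.08, 0.09, -0.47 and -0.05 and did not pass. At 1 h these genes had stood 0.02 to 0.22 above their untreated level.

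Most of the genes with the largest rises were near the dim end of the array at 1 h. Aldh1a3, which makes retinoic acid, read 10.55, 9.79 and 10.11 at 10 h against 4.70, 4.39 and 4.44 at 1 h. The difference of RMA values was 5.64 ± 0.10 (limma adjusted p = 4.9e-12), and untreated cells had read 4.65, 3.93 and 3.96. The 1 h values of Aldh1a3, Olr1, Tfpi2 and Lce1f lay below the median of all probe sets, 4.74 to 4.81 on the 18 arrays, so their differences do not measure a fold in RNA. Gjb2, which encodes the gap junction protein connexin 26, read 11.33, 10.90 and 11.37 at 10 h against 7.33, 6.64 and 7.18 at 1 h, a 17.7-fold rise. Olr1, a scavenger receptor for oxidised lipoprotein, rose by 3.90 on the log2 scale, Nppb, the B-type natriuretic peptide, by 3.63, Tfpi2, a serine protease inhibitor, by 3.53, and Lce1f, a gene of the late cornified envelope cluster, by 3.48. None of these 6 genes overlapped between the times in any array, and none had differed from untreated cells by more than 0.33 on the log2 scale at 1 h.

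Some other retinoid genes fell. Rarb, a retinoic acid receptor, read 3.80, 3.93 and 3.76 at 10 h against 6.25, 6.41 and 6.38 at 1 h (-2.52 ± 0.10, limma adjusted p = 8.8e-09). The 10 h values of Rarb lay below the median of all probe sets, so no fold in RNA is given. Dhrs3, which turns retinal back to retinol, fell by 1.93 ± 0.12. In the whole retinoid list 3 of 13 were higher, Aldh1a3, Aldh1a2 and Rdh10, and 4 were lower, Dhrs3, Rarb, Rarg and Rxra. With the 9 knock-out arrays alone 6 were lower. The counts of 3 and 4 lay near the 15.9% and 22.8% of all tested genes, so no direction of the list as a whole is read from them.

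**Figure D2:**
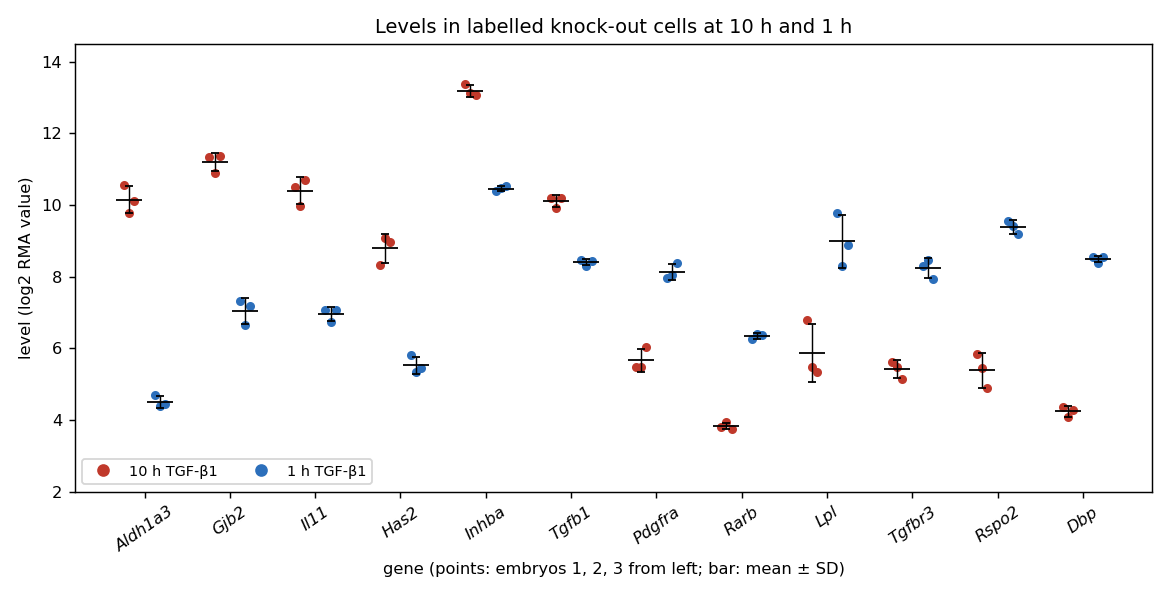
Levels (y axis, log2 RMA value) of 12 genes (x axis) in labelled knock-out cells at 10 h (red, left of each pair) and at 1 h (blue, right); points are embryos 1, 2 and 3 from left to right and bars are mean ± SD. Aldh1a3 to Tgfb1 have all 10 h points above all 1 h points and Pdgfra to Dbp have them all below.

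Il11, a cytokine of the interleukin-6 family known as a TGF-β target in fibroblasts, read 10.51, 9.98 and 10.71 at 10 h against 7.06, 6.73 and 7.07 at 1 h (3.45 ± 0.24, limma adjusted p = 5.7e-07), without overlap. In its family 5 of 14 genes, with other blood cell cytokines included, were higher and 5 lower, beside 15.9% and 22.8% of all tested genes. The ligands Il11, Il6, Lif, Clcf1 and Csf1 rose, Csf1 by 1.01 and by 0.67 without embryo 1. The receptor genes Lifr, Il6st and Osmr fell by 2.28, 1.74 and 0.56. The other lower genes were ligands, Kitl, the stem cell factor, at -1.86 and Ctf1, cardiotrophin, at -0.40, and the call for Ctf1 was lost without embryo 1 or 2. Il6st, the shared signalling receptor gp130, read 9.88, 9.71 and 9.61 at 10 h against 11.61, 11.45 and 11.37 at 1 h.

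Of the PDGF and VEGF genes 6 of 13 were higher and 5 lower, beside 15.9% and 22.8% of all tested genes. Both ligands and receptors of the list were found on either side. Pdgfa rose by 1.34 ± 0.12 to 10.07, 9.87 and 10.05 at 10 h, against 8.41, 8.58 and 8.97 at 1 h. Pdgfc rose by 1.25 ± 0.11 and Pdgfb by 1.72 ± 0.33, the last by 1.09 without embryo 1. Pdgfra, the receptor for the PDGF-A chain and a fibroblast marker, read 5.48, 5.49 and 6.04 at 10 h against 7.96, 8.04 and 8.39 at 1 h. This 5.52-fold fall (-2.46 ± 0.12, limma adjusted p = 3.7e-08) left no overlap, and Pdgfrb, the other receptor, was at 0.06 and did not pass. Vegfa, the main endothelial growth factor, rose by 1.79 ± 0.11 and Flt1, its decoy receptor, by 1.82 ± 0.14, while the co-receptors Nrp1 and Nrp2 fell by 0.51 and 0.70. The call for Nrp2 was lost without embryo 1 or 3. Among further ligands Vegfc rose by 1.24, and by 0.83 without embryo 1, while Pdgfd and Vegfb fell by 0.56 and 0.74.

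Fgf2 rose by 2.34 ± 0.24 and Fgf21, a stress-induced hormone, by 3.02 ± 0.13, while Fgfr2 fell by 1.84 ± 0.17. A dim probe set of Fgfr2 went the other way, at 0.33 ± 0.10. Of the EGF family, Ereg rose by 2.26 ± 0.37 beside Hbegf, and their receptor Egfr fell by 0.66 ± 0.08. In the Wnt list, 7 of 23 genes were higher and 7 lower, beside 15.9% and 22.8% of all tested genes. Rspo2, which strengthens Wnt signals, read 5.84, 5.44 and 4.88 at 10 h against 9.56, 9.41 and 9.18 at 1 h. This was a fall without overlap (-3.99 ± 0.30, limma adjusted p = 1.1e-06). The 10 h value of embryo 3 lay close to the median of all probe sets, 4.74 to 4.81, so no fold in RNA is given. A dimmer probe set of the gene, at a mean level of 5.03, was at 0.01. Rspo3 fell by 1.77 and the frizzled receptors Fzd1, Fzd2, Fzd4, Fzd7 and Fzd8 by 0.64 to 1.01, of which the call for Fzd7 was lost without embryo 1, while the ligand Wnt11 rose by 1.42 ± 0.19.

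Feedback inhibitors of the MAP kinase pathway were higher for 11 of 17, beside 15.9% of all tested genes, with 1 lower and a median of 0.46. The phosphatase genes led: Dusp6, which acts on ERK, read 9.65, 9.33 and 9.39 at 10 h against 7.53, 7.29 and 6.72 at 1 h (2.27 ± 0.17, limma adjusted p = 1.2e-06). Dusp5 and Dusp4 rose by 2.33 and 2.75, and Spred2, an inhibitor of RAF activation, by 1.29. None of these 4 genes overlapped between the times, and at 1 h they had stood 0.05 to 0.53 above untreated cells. Spry2 was the lower one, at -0.62. When embryos 1, 2 and 3 were left out in turn, 8, 8 and 7 were higher.

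Of the immediate early genes, 12 of 30 were higher at 10 h and 1 lower, beside 15.9% and 22.8% of all tested genes. When embryos 1, 2 and 3 were left out in turn, 9, 11 and 10 were higher and 0 lower. Ier2 rose by 1.64 ± 0.20, Maff by 1.56 ± 0.18, Fosl1, an AP-1 subunit, by 1.34 ± 0.14 and Myc, a growth regulator, by 1.25 ± 0.18. Fos, the best known gene of the class, was at -0.30 and did not pass.

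Genes of matrix and adhesion changed in parts. Has2, which makes hyaluronan, read 8.32, 9.08 and 8.97 at 10 h against 5.80, 5.33 and 5.45 at 1 h (3.26 ± 0.23, limma adjusted p = 8.6e-07), and Cd44, the hyaluronan receptor, rose by 1.17 ± 0.09. The small leucine-rich proteoglycan gene Ogn fell by 1.43 ± 0.22. Of 23 collagen chains 6 were higher, 2 lower and 15 did not pass, with a median of 0.03. The shares over all tested genes were 15.9% higher and 22.8% lower. Col8a2 rose by 1.93 ± 0.24 and Col5a3 by 1.47 ± 0.19. The brightest probe sets of Col1a1 and of Acta2, smooth muscle actin, lay at 13.73 to 14.18 at both times, close to the highest value on any array, 14.47, and were at -0.06 ± 0.11 and 0.15 ± 0.07. A dimmer Col1a1 probe set, at a mean level of 10.46, was at 1.00 ± 0.33 (limma adjusted p = 0.046). Dimmer Acta2 probe sets, at mean levels of 6.92 and 5.85, were at 0.96 ± 0.40 and -0.26 ± 0.26 and did not pass.

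Eln, the elastin gene, read 9.80, 8.82 and 10.33 at 10 h against 7.39, 5.35 and 8.21 at 1 h. The embryos differed in level but each rose, by 2.66 ± 0.37 on average (limma adjusted p = 0.00013). Tnc, a matrix glycoprotein of remodelling tissue, rose by 1.38 ± 0.09. Of 23 matrix proteases and inhibitors, 9 were higher and 6 lower, beside 15.9% and 22.8% of all tested genes. Adam12 rose by 1.91 ± 0.11, and the inhibitors Timp3 and Timp1 by 1.85 and 1.26. Mmp9 rose by 2.60 ± 0.49, with 4.61 in embryo 1 against 1.74 and 1.46 in the others, and by 1.60 without embryo 1. Adamts5, a proteoglycan-cleaving enzyme, read 7.77, 7.99 and 7.82 at 10 h against 10.77, 10.66 and 10.53 at 1 h (-2.79 ± 0.13, limma adjusted p = 3.7e-08).

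The integrin genes Itga5, the fibronectin receptor subunit, and Itgb3 rose by 2.74 ± 0.13 and 2.41 ± 0.26. Itga5 read 11.78, 11.65 and 11.60 at 10 h against 8.91, 9.15 and 8.75 at 1 h, without overlap. Of 25 contractile and actin genes, 15 were higher and 1 lower, beside 15.9% and 22.8% of all tested genes. The median of the list was 0.35, and without embryo 1 the count was 12 and 0. The changes were small, with Cnn1 and Tagln2 at 1.23 and 1.13, Csrp1 at 0.95 and Tagln, which is bright, at 0.44.

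The cell cycle genes fell together. All 27 mitosis genes passed as lower, with a median of -0.95, where 22.8% of all tested genes did, and 25 of 30 DNA replication genes were lower and 0 higher, with a median of -0.70. Mki67, a marker of cycling cells, read 8.18, 8.11 and 8.46 at 10 h against 9.84, 9.33 and 9.75 at 1 h (-1.39 ± 0.13, limma adjusted p = 6.1e-06). Tk1, thymidine kinase, read 6.67, 5.82 and 6.54 at 10 h against 8.39, 7.76 and 8.25 at 1 h (-1.78 ± 0.12, limma adjusted p = 4e-07). Neither overlapped between the times. At 1 h the median of the mitosis genes had been 0.03 from untreated cells and that of the replication genes 0.04. When embryos 1, 2 and 3 were left out in turn, 24, 22 and 25 of the 27 mitosis genes passed. Cdkn1a, a cell cycle inhibitor known as a TGF-β target, was at 0.08 ± 0.08 and did not pass. The inhibitors Cdkn2c and Cdkn1b fell by 0.94 and 0.97, while Cdkn2b rose by 0.37, a call that was lost without embryo 1 or 3. In the list of CDK inhibitors and p53 targets, 3 of 20 were higher and 9 lower, beside 15.9% and 22.8% of all tested genes. Leaving out embryos 1, 2 and 3 in turn gave 1, 2 and 2 higher and 4, 8 and 6 lower.

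Promoters of mitosis genes often hold the CHR, the letters TTTGAA, near their start. In the window of Ccnb2, a mitotic cyclin that fell by 1.25 ± 0.14, capitals mark it (chr9:70421505-70421804, minus strand, RefSeq, GRCm38.p6).
Ccnb2: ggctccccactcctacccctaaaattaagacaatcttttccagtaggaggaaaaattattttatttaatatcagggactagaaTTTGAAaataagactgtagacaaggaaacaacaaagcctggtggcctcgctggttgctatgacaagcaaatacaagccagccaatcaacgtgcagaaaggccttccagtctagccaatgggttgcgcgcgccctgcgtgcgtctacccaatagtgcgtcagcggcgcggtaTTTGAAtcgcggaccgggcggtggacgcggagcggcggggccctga
The window held 2 copies. Among the mitosis genes, 22 of 27 had a promoter in the table, and 17 of their 23 windows (73.9%) held the letters on either strand, beside 5878 of 32851 windows of all promoters (17.9%) and 4 of 31 windows of the replication genes (12.9%). This motif was searched after the course of the mitosis genes had been seen.

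The circadian clock genes changed in both directions. Dbp, an output factor of the clock, read 4.36, 4.08 and 4.27 at 10 h against 8.56, 8.39 and 8.54 at 1 h. The fall was -4.26 ± 0.09 (limma adjusted p = 9.5e-12), and the 10 h values lay below the median of all probe sets, so no fold in RNA is given. Of 13 core clock genes 5 were higher and 5 lower, beside 15.9% and 22.8% of all tested genes. Arntl, which encodes the activator BMAL1, read 9.30, 9.48 and 9.38 at 10 h against 7.39, 7.73 and 7.59 at 1 h (1.82 ± 0.10, limma adjusted p = 9.4e-08), and Cry1 rose by 1.75 ± 0.14. Per1, Per2 and Per3 fell by 0.87, 1.20 and 1.26, and the nuclear receptors Nr1d1 and Nr1d2, which repress Arntl, by 0.89 and 1.62. Without embryo 2 the difference for Nr1d1 was -0.55, and without embryo 1 or 2 the core list had 3 members higher. Per1 and Per2 had stood at 0.45 and 0.83 over untreated cells at 1 h. At 10 h they stood at -0.43 and -0.37. Of the output genes, Tef and Wee1 fell by 1.18 and 0.94, and Nfil3, which opposes Dbp at its sites, rose by 1.18.

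The promoters of Per1 and Per3 are shown because they hold the sites through which the loop is known to act. In the Per1 window (chr11:69098699-69098998, plus strand) capitals mark an E-box, CACGTG, the site of the activators. In the Per3 window (chr4:151044616-151044915, minus strand) capitals mark 2 D-boxes, TTANGTAA, the site of Dbp, Tef and Nfil3. Both windows are from RefSeq, GRCm38.p6.
Per1: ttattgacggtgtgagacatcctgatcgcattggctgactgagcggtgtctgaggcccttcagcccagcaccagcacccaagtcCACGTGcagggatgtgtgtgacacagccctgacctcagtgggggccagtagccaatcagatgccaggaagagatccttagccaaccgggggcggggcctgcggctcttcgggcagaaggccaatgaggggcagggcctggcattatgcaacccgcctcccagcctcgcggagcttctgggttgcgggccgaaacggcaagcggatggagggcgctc
Per3: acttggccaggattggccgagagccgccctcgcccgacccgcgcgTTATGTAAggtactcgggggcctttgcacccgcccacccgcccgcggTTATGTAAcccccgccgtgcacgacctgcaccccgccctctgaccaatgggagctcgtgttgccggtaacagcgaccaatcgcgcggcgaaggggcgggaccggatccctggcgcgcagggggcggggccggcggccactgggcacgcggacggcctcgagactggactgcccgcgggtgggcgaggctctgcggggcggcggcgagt
Of the 13 core genes 11 had a promoter in the table, with 18 windows. The E-box was in 2 of them (11.1%, Per1 and Cry1) beside 7.15% of all windows, and the D-box in 1 (5.56%) beside 2.32%. The letters were searched on both strands, and 1 of the 2 Per1 windows held them.

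Genes of ribosome building were higher, 17 of 19 with 0 lower and a median of 0.72. For this and the next lists, the shares over all tested genes were 15.9% higher and 22.8% lower. Rrp12 read 7.24, 6.83 and 7.17 at 10 h against 5.77, 5.96 and 6.10 at 1 h (1.14 ± 0.13, limma adjusted p = 2.4e-05), and the rRNA processing genes Nop56, Nop2 and Gar1 rose by 0.84 to 0.86. Of the ATF4 and amino acid genes 13 of 22 were higher and 3 lower, with Fgf21, Chac1 and Cth at 3.02, 1.76 and 1.59 and Atf4 itself at 0.76. Slc7a11, the cystine transporter gene, lost its call without embryo 1, where its difference was 0.32. Of the ER folding genes 10 of 18 were higher and 0 lower: Hspa5, the main chaperone there, read 13.38, 13.44 and 13.31 at 10 h against 12.52, 12.55 and 12.53 at 1 h (0.85 ± 0.07, limma adjusted p = 2.4e-06). Xbp1, Manf and Creld2 rose by 0.75, 0.98 and 1.15. Respiratory chain genes were 0 higher and 2 lower of 18 and sterol synthesis genes 2 and 3 of 20, at or under the share over all tested genes.

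In sugar and lipid metabolism single genes moved. Slc2a1, the glucose transporter, rose by 1.44 ± 0.11 and Hk2, hexokinase, by 1.10 ± 0.18, while Bnip3 and Adm, known as hypoxia targets, fell by 1.04 and 1.49. Lpl, lipoprotein lipase, read 6.79, 5.49 and 5.33 at 10 h against 9.78, 8.30 and 8.89 at 1 h (-3.12 ± 0.15, limma adjusted p = 3.7e-08). Slc40a1, the iron exporter, fell by 2.96 ± 0.16. Among antioxidant genes 7 of 19 were lower, beside 22.8% of all tested genes, and 2 higher, with Nox4, an NADPH oxidase, rising by 0.81. Without embryo 2 or 3 the count of lower ones was 4 or 3.

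**Figure D3:**
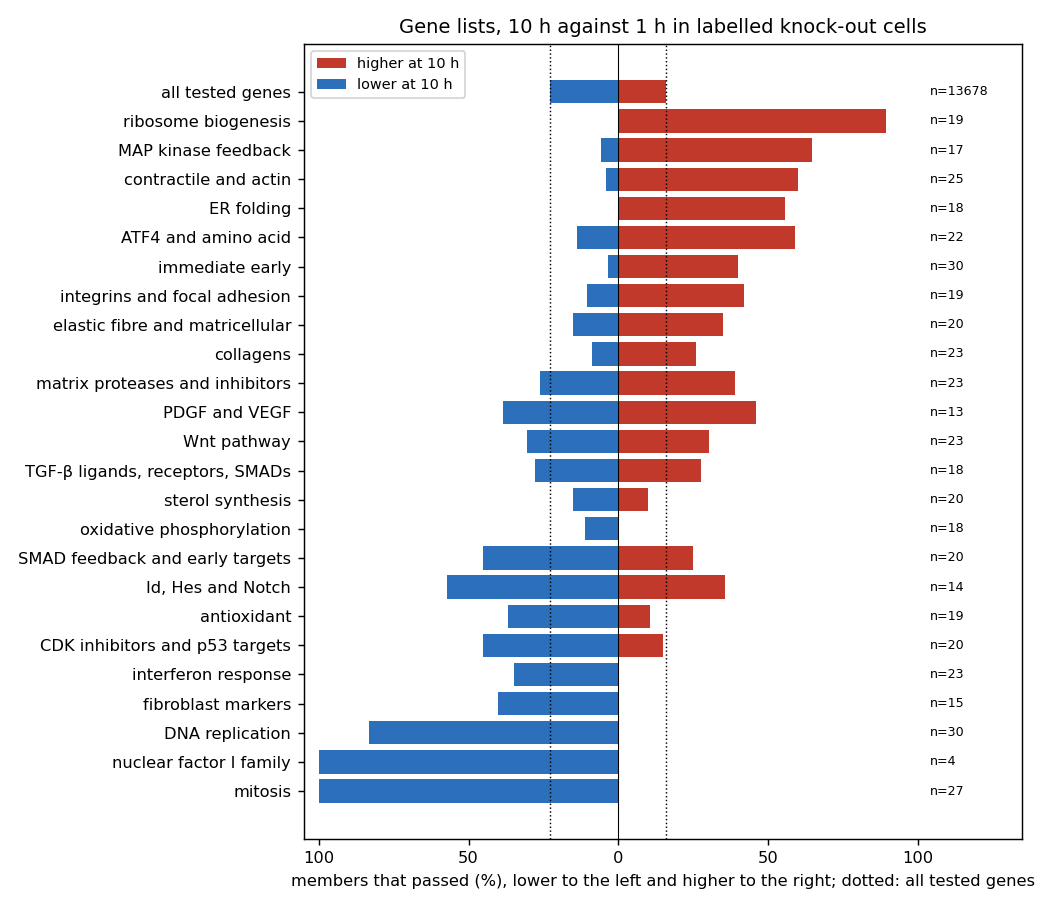
For 24 gene lists and all tested genes (y axis), bars give the share of members that passed as higher at 10 h than at 1 h (red, to the right) or lower (blue, to the left), in percent, with the number of members at the right edge; dotted lines mark the shares over all tested genes, 15.9% and 22.8%. Ribosome biogenesis has 17 of 19 members higher and mitosis 27 of 27 lower.

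Inflammatory genes depended on 1 embryo. Of 23 chemokine and NF-κB target genes, 7 were higher and 4 lower (6 and 4 without embryo 1). The shares over all tested genes were 15.9% and 22.8%. The median difference of the 23 genes was 2.25 in embryo 1, but 0.02 and 0.01 in embryos 2 and 3. Ccl2, a monocyte chemokine, read 13.21, 8.99 and 8.91 at 10 h against 7.95, 8.16 and 7.84 at 1 h, and Saa3, an acute-phase gene, 10.55, 4.84 and 4.65 against 4.85, 4.64 and 4.70. Both genes were far higher at 10 h in embryo 1 than in the other embryos, and in Saa3 the other 2 embryos stayed near their 1 h level. The count of members more than 1 log2 unit up was 16 in embryo 1, 4 in embryo 2 and 5 in embryo 3.

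Some of the rises were present in every embryo. Cx3cl1, a membrane-bound chemokine, rose by 2.86, 2.67 and 2.15 in embryos 1, 2 and 3, and Ptgs2 by 2.25, 1.82 and 1.54. Cxcl14 rose by 1.12, 1.36 and 1.20. Tnfaip3, an inhibitor of NF-κB, rose by 2.22 with embryo 1 and 1.24 without it (limma adjusted p = 0.00017), Ccl2 by 2.38 and 0.95 (0.027), Nfkbiz by 1.93 and 0.76 (0.031), Il6 by 2.92 and 1.96 (0.0032) and Ccl20 by 3.33 and 1.94 (0.00035). Saa3, Cxcl10, Cxcl5, Ccl5 and Icam1 did not pass with embryo 1 and were at 0.08, -0.01, -0.06, 0.15 and 0.01 without it. The pentraxin gene Ptx3 fell by 2.24 ± 0.61, a call that was lost without embryo 2 or 3, and Cxcl12, a stromal chemokine, fell by 0.97 ± 0.12.

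The macrophage and leukocyte markers were highest in embryo 1 at all 3 conditions, with mean levels of 9.62, 9.38 and 9.30 in untreated, 1 h and 10 h cells against 7.67 to 8.31 in the other embryos. Of these 19 markers 16 did not pass, 3 were lower and 0 higher, beside 22.8% and 15.9% of all tested genes. The part of these markers in the inflammatory rise was not tested. The 3 lower ones were Mrc1, Cd53 and Mpeg1, at -1.42, -1.01 and -0.67, and the call for Mpeg1 was lost without embryo 1 or 3. With embryo as a random block, or with no block, none of the 3 passed. In bulk RNA, fewer cells of a type and less RNA per cell cannot be told apart. Interferon response genes were 0 higher and 8 lower of 23, beside 15.9% and 22.8% of all tested genes. The medians of this list were 0.05 in embryo 1 and -0.80 and -0.45 in embryos 2 and 3. The count of lower genes was 12, 4 and 5 when embryos 1, 2 and 3 were left out in turn. Ifit2 fell by 1.66, 2.02 and 2.26 in the 3 embryos.

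**Figure D4:**
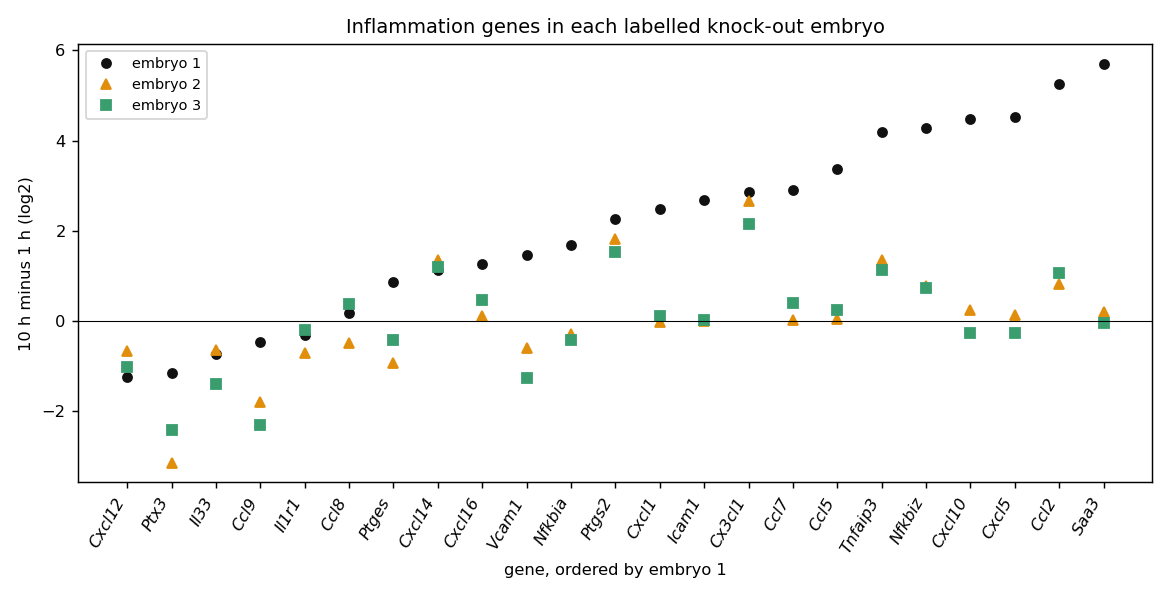
The 10 h minus 1 h difference on the log2 scale (y axis) of 23 chemokine and NF-κB genes (x axis, ordered by embryo 1) is drawn for each labelled knock-out embryo (circles, triangles and squares for embryos 1, 2 and 3). Embryo 1 reaches 5.70 for Saa3, where embryos 2 and 3 are at 0.20 and -0.04, while the 3 embryos lie close for Cx3cl1 and Cxcl14.

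Markers of fibroblasts were lower for 6 of 15, beside 22.8% of all tested genes, and higher for 0. The lower ones included Pdgfra and Prrx1, a mesenchymal homeobox factor, which fell by 1.87 ± 0.14. Thy1, Vim and Fn1 were at 0.05, 0.02 and 0.01. Among markers of other cell types, 6 of 11 epithelial and keratinocyte genes were higher, beside 15.9% of all tested genes. The higher ones included Gjb2, the desmosomal gene Pkp1 (2.32 ± 0.18) and the keratin genes Krt18 and Krt19 (0.97 and 0.79). Epcam, Krt5 and Krt8 did not pass. Of the striated muscle genes 5 of 10 were higher, beside 15.9% of all tested genes, and 3 without embryo 2, with Acta1, skeletal actin, at 10.32, 11.03 and 10.71 at 10 h against 8.07, 9.28 and 8.60 at 1 h. Whether other cells took part was not tested.

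The last comparison asked whether the change from 1 h to 10 h differed between labelled knock-out and wild-type cells. By the interaction term of the same limma fit, 0 of 13678 genes (0%) passed. Before adjustment 591 genes were under 0.05, and 684 is the number that uniform p-values give. For 96.0% of the genes the whole 95% interval stayed under a 2-fold difference between the genotypes, and the median half-width of that interval was 0.34 log2 units. Over genes, the labelled knock-out and wild-type differences had a Pearson's r of 0.923 and a Spearman's rho of 0.872, as a description across genes, which are not independent replicates. Of the 789 genes that changed at least 2-fold in labelled knock-out cells, 789 had the same sign in wild type. Among the wild-type embryos, numbers 2 and 3 did not pair their 10 h and 1 h arrays (correlations of -0.032 and -0.113), and without the embryo block the count was also 0, with 367 genes at an unadjusted p under 0.05.

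Ppp1r3c, a subunit that directs protein phosphatase to glycogen, had the smallest p. In labelled knock-out cells it read 4.06, 4.26 and 3.92 at 10 h against 6.95, 6.16 and 6.37 at 1 h, and in wild-type cells 4.28, 4.38 and 4.71 against 5.55, 4.80 and 5.30. At 1 h every labelled knock-out array was above every wild-type array. The genotypes were close at 10 h, but all 10 h values lay below the median of all probe sets, 4.74 to 4.81 across the arrays. Closeness there need not mean equal RNA, and the differences below do not measure a fold in RNA for this gene. The change was -2.41 in labelled knock-out cells and -0.76 in wild type, a difference of -1.66 ± 0.25 (limma adjusted p = 0.317), and with the mean of all its probe sets the difference was -1.09. The next genes by p were Elobl, Ephb4, Tmem53 and Myl10, with differences of -0.74, -0.59, -0.46 and 0.45 (limma adjusted p = 0.990 each). Side by side, Aldh1a3 differed by 5.64 in labelled knock-out and 6.23 in wild-type cells, Tgfb1 by 1.71 and 1.85, Id1 by -1.94 and -1.59, Nfia by -1.96 and -1.56, and Tgfbr3 by -2.82 and -2.72.

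**Figure D5:**
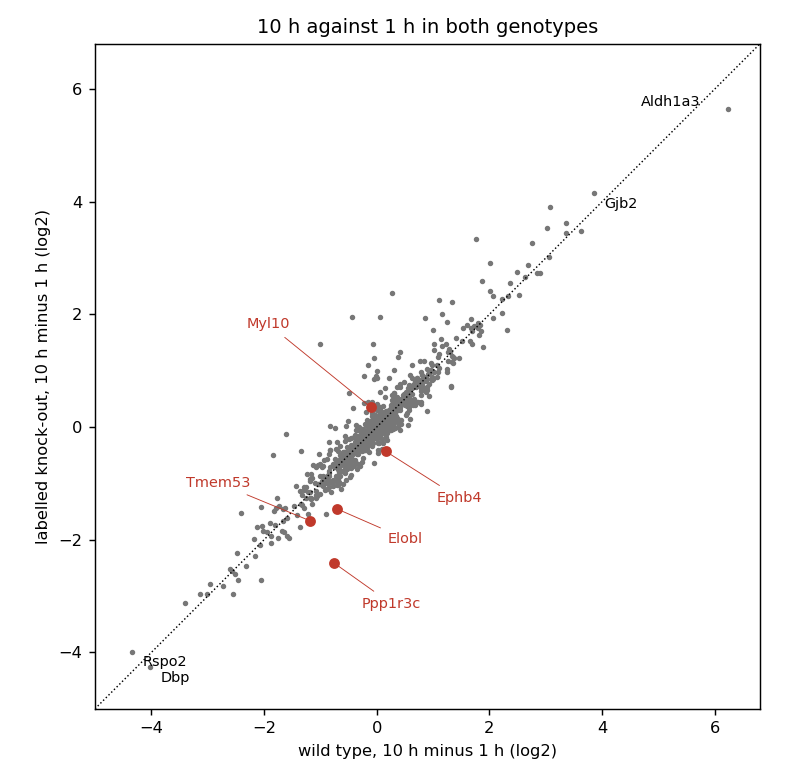
The 10 h minus 1 h difference on the log2 scale in labelled knock-out cells (y axis) is plotted against that in wild-type cells (x axis) for the 764 genes of the lists, the early genes and the named genes; the dotted line marks equal values. Aldh1a3 is at 5.64 and 6.23 and Dbp at -4.26 and -4.02 in labelled knock-out and wild type, and red points mark the 5 genes with the smallest p for the difference, of which Ppp1r3c lies farthest from the line.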

How the data were processed

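RNA of the 18 cultures was hybridised to Affymetrix mouse arrays. The deposited values are on the log2 scale, and the submitters' processing notes name RMA, which in its usual form corrects background, normalises by quantiles and summarises probes; no version of it is stated. Precision is limited by the number of arrays.

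Of 45101 probe sets, 34945 had 1 gene symbol in the platform annotation, 932 had several and 9224 had none; 34741 were updated through Entrez identifiers. The brightest probe set by mean over 18 arrays stood for each of 18193 genes, and the 13678 above the 40th percentile on at least 3 arrays were tested. limma 3.58.1 in R 4.3.3 (lmFit, eBayes) was fitted to all 18 arrays with embryo as a block, and p-values were Benjamini-Hochberg adjusted over all tested genes at 0.05. Embryos are the replicates. In labelled knock-out cells, deviations of the same embryo at 10 h and 1 h correlated at 0.400, 0.401 and 0.302, so the numbers in the titles pair the arrays. On simulated data with the same design, 67, 67 and 66 of 13678 genes were changed by 0.5, 1 and 2 log2 units. Of these, 70.1%, 92.5% and 98.5% were recovered, with 8 false calls among the unchanged genes. Far fewer genes changed there than the 5288 called in the real comparison, so these rates need not hold for it.

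Genes were named by rule: the 12 largest rises and falls without overlap between the times and with the same direction in each embryo, up to 4 genes of smallest p in each of 44 lists, fixed genes of the pathway, the 5 genes of smallest p for the genotype difference, early genes of wild type, and genes that stayed up. Other list members were named after their values were seen. The comparison, the lists and the fixed genes were chosen with earlier results of these data known. Alternatives were no block, embryo as a random block, other sets of arrays, other filters on dim probe sets, the mean of all probe sets, other scalings and leaving out each embryo.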

Additional observations from a re-analysis of the deposited data

Results flagged for a closer look

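Ephb4 and Myl10 were among the genes named for the smallest p of the genotype difference, a choice that favours opposite movement. In both, all labelled knock-out embryos moved opposite to all wild-type embryos between 10 h and 1 h. The share of all tested genes with this pattern is not given here. Ephb4, a receptor tyrosine kinase, differed by -0.51, -0.48 and -0.29 on the log2 scale in labelled knock-out embryos 1, 2 and 3, against 0.20, 0.18 and 0.11 in wild-type embryos, a difference between the genotypes of -0.59. Myl10, a myosin light chain, differed by 0.32, 0.44 and 0.28 in labelled knock-out embryos, against -0.08, -0.04 and -0.19 in wild-type embryos, a difference of 0.45. Neither passed the interaction test (limma adjusted p = 0.990 for both).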

How the results depend on the processing

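The counts of higher and lower genes stayed within 1.5 times of those reported under the alternatives run, except where named here. With the mean of all probe sets of a gene, 315 genes were at least 2-fold lower, against 510. With no fold minimum for early genes, 56 rose in wild type, of which 20 fell and 20 rose further in labelled knock-out cells, against 13 and 9 of 32. When each embryo was left out in turn, 1467 to 2367 genes were higher and 2174 to 3403 lower, 239 to 327 at least 2-fold higher and 499 to 595 at least 2-fold lower; 11 to 14 early genes fell, 7 to 10 rose further, and 0 passed for the genotype difference. Without the replicate block, 1877 genes were higher and 2694 lower (272 and 499 at least 2-fold), 13 early genes fell and 8 rose further, and 0 passed for the genotype difference in limma (367 at an unadjusted p under 0.05). Of the 200 genes named by rule 188 passed, 160 of them under every alternative, and none changed direction. In wild type the numbers of embryos 2 and 3 at 10 h correlated better crossed (0.371 and 0.359) than as labelled (-0.032 and -0.113). Levels near the top of the range, such as Acta2 and Col1a1, limit what can be measured there. Among the lists, 4 Wnt genes were higher with the 60th percentile filter (7 reported), 4 inflammatory genes with the 6 compared arrays alone (7), 4 collagens were lower with the 9 knock-out arrays alone (2), and 3 of the ligands, receptors and SMADs were lower with the mean of all probe sets (5).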
